A study of Mus musculus with 11 samples.

Results

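Developing neurons are removed by the mitochondrial, or intrinsic, route of apoptosis, and 9 genes of that route were followed here in the postnatal mouse retina. They were chosen by name for their known roles, but with earlier results of these data known. They are the effector Bax, the inhibitors Bcl2 and Bcl2l1, the BH3-only genes Bcl2l11, Bbc3, Bid and Hrk, and the apoptosome genes Apaf1 and Casp9. All 9 were among the 47069 genes counted, and 9 of 9 were among the 18188 genes that passed the filter on low counts. The series holds 11 RNA-seq libraries of C57BL/6 mouse retina in 4 groups: wild type at postnatal day 4 (P4, n = 2), Kir2.1 at P4 (n = 3), wild type at P8 (n = 3) and Kir2.1 at P8 (n = 3). The Kir2.1 animals carried a human Kir2.1-eYFP transgene behind the CAG promoter and a floxed STOP cassette, opened by Cre under Brn3b, a gene active in most retinal ganglion cells. Kir2.1 is an inwardly rectifying potassium channel used to hold neurons near rest and so reduce their firing. The genotype field names the other groups wild type, whereas the protocol names Brn3b-cre controls, so those groups may carry the driver without the transgene. The age field gives day 8 for the later groups and the extraction protocol gives day 11. The later groups are called P8 here, as their labels have it. The source field names retinal ganglion cells, yet the tissue field names retina and the protocol describes whole dissociated retinas with no sorting step. The libraries held markers of ganglion, rod, cone, bipolar, amacrine, Mueller, microglial and vascular cells, so the values are treated as levels in whole tissue. In such bulk samples, fewer cells of a type and less RNA per cell cannot be told apart. The labels do not say whether the libraries of a group came from separate animals or pools, so p-values measure only the spread between these libraries, which may be technical.

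In this pathway, BH3-only proteins sense loss of trophic support, DNA damage or stress, and bind the anti-apoptotic members of the BCL-2 family. When those inhibitors are overcome, BAX and its partner BAK open the outer mitochondrial membrane and cytochrome c is released. Cytochrome c joins APAF1 in the apoptosome, which activates caspase-9 and, through it, the executioner caspases. In the rodent retina the ganglion cells that fail to secure target-derived support die around birth and in the first postnatal days, and deaths of bipolar, amacrine and photoreceptor cells follow later. Mice without Bax keep ganglion cells that would otherwise die.

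Sequence upstream of the start sites is shown for the 3 genes whose RNA fell between the ages and for Bcl2l1, an inhibitor that did not pass that test. Promoter windows from RefSeq (build GRCm38.p6) matched 9 of 9 genes in 14 windows, since some genes have several start sites. For each gene shown, the window of its outermost start is used, and the part printed is the 250 bases before the start, read 5′ to 3′ on the gene's strand. Capitals mark GGGCGG and its reverse complement CCGCCC, the GC box, and GTAAACA on either strand, a forkhead (FOXO) core. The Bcl2 window, chr1:106714291-106714540 on the minus strand, held 7 GC boxes. The Apaf1 window, chr10:91082771-91082993 on the minus strand, held 2 in the 223 bases printed, from which 27 bases annotated as exon were left out. The Bcl2l11 window, chr2:128125788-128126037 on the plus strand, held 3 GC boxes and 1 GTAAACA. The Bcl2l1 window, chr2:152831729-152831978 on the minus strand, held neither motif.
Bcl2: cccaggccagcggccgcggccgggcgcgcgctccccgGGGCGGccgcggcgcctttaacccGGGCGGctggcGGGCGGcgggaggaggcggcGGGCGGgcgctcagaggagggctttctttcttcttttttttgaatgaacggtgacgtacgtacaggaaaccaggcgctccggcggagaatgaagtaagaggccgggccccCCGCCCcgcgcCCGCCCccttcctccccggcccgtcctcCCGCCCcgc
Apaf1: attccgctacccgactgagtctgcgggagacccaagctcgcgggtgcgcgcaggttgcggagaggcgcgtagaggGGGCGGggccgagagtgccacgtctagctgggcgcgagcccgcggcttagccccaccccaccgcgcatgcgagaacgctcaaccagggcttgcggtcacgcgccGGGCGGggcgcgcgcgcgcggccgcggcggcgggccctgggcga
Bcl2l11: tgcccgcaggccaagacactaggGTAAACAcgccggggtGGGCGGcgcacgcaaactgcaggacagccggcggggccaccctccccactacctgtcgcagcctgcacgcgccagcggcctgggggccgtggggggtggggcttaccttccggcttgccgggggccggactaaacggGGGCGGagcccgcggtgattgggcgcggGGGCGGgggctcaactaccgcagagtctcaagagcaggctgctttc
Bcl2l1: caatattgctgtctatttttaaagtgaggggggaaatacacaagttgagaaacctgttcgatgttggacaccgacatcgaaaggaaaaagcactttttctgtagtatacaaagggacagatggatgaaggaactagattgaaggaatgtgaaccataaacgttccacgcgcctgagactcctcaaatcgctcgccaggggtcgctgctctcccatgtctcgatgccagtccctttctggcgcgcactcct
The full Bcl2, Apaf1 and Bcl2l11 windows were 74.8%, 75.6% and 72.0% G or C, against 47.6% in the Bcl2l1 window and a median of 52.4% over all 32851 windows of the same length. Uncalled members also had high GC content and GC boxes: the windows of Bbc3 (3 windows), Casp9, Bid, Hrk and Bax were 72.4 to 81.6%, 66.0%, 63.6%, 63.2% and 54.0% G or C. They held 1 to 7, 4, 3, 2 and 2 GC boxes, and 1 of the Bbc3 windows held the forkhead core. GC boxes on either strand were present in 32.7% of all windows and GTAAACA in 3.17%. The E-box CACGTG, searched on both strands, was present once each in a Bax and a Bbc3 window and in 6.02% of all windows. Other motifs were searched on both strands: TTTNNCGC, an E2F-type site, matched another Bcl2l1 window and 4.28% of all windows, while TATAAA (12.4% of all windows) and TGACGTCA (1.55%) matched no window of the 9 genes. These matches describe letters in a window and say nothing of binding.

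The 9 genes lie on 7 chromosomes in the GENCODE M21 annotation of GRCm38. Bax lies at chr7:45461697-45466898, Bcl2 at chr1:106538178-106714274, Bcl2l1 at chr2:152780668-152831728, Bcl2l11 at chr2:128126038-128162547 and Bbc3 at chr7:16308393-16318205. Bid lies at chr6:120891930-120916853, Hrk at chr5:118164648-118189478, Apaf1 at chr10:90989311-91082770 and Casp9 at chr4:141793612-141815976. Exons of 4 of them overlap those of another gene: 12.2% of the exonic length of Bax, 6.09% of Bcl2, 17.7% of Bid (with its neighbour Bcl2l13) and 1.81% of Casp9. Whether the counting used strand is not given in the sources used here, so reads in the stretches of Bcl2, Bid and Casp9, whose partners lie on the opposite strand, cannot be assigned with certainty. The gene that overlaps Bax, Gm45808, lies on the same strand, so no strand setting would separate their reads there. Gene counts also do not separate the long, protective isoform of Bcl2l1 from its short, pro-apoptotic one.

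Each library held 9362215 to 12478838 reads counted on genes, and 1 count was worth 0.0768 to 0.104 CPM (TMM-scaled reads per 1000000 reads counted on genes). Some wild-type libraries stood apart on cell-type markers. At P4, wild-type replicate 2 had a summed level of 10 cell-division markers of 966 CPM against 2579 CPM in replicate 1, and a summed level of 10 rod markers of 1301 CPM against 253 CPM. At P8, wild-type replicate 1 had 840 CPM of rod markers and replicate 2 had 3401 CPM, against 7512 CPM in replicate 3, which lay near the 3 Kir2.1 libraries at 7085 to 7304 CPM. A fit without wild-type P4 replicate 2 and wild-type P8 replicate 3, a pair chosen from earlier results, is given beside the members named for a small p. At P8 it drops the wild-type library nearest to Kir2.1 in rod markers and keeps the 2 with the lowest rod sums, so it is not a removal of outliers. One further library, Kir2.1 P8 replicate 2, had counts on 31325 genes, against 22609 to 24591 in the other 10.

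Per kilobase of exon, the inhibitor Bcl2l1 and the effector Bax had the highest levels of the 9 genes. Over the 11 libraries Bcl2l1 averaged 16.0 ± 2.28 CPM per kb (SD, n = 11) and Bax 11.7 ± 1.98 CPM per kb. Casp9 (5.04 ± 0.61 CPM per kb), Apaf1 (4.77 ± 1.13), Bcl2l11 (4.14 ± 1.37) and Bbc3 (3.56 ± 0.88) came next, and these neighbours differed by less than their SDs. Bid (2.62 ± 0.75 CPM per kb) and Bcl2 (2.12 ± 0.86) followed, also within their SDs of each other. Hrk, a BH3-only gene known from neurons deprived of nerve growth factor, was lowest at 0.560 ± 0.226 CPM per kb. It rested on 19 to 60 counts per library, against 622 to 1055 for Bcl2l1. Union exon length counts exons of all isoforms, so it understates the level of a gene whose main transcript uses few of them.

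**Figure D1:**
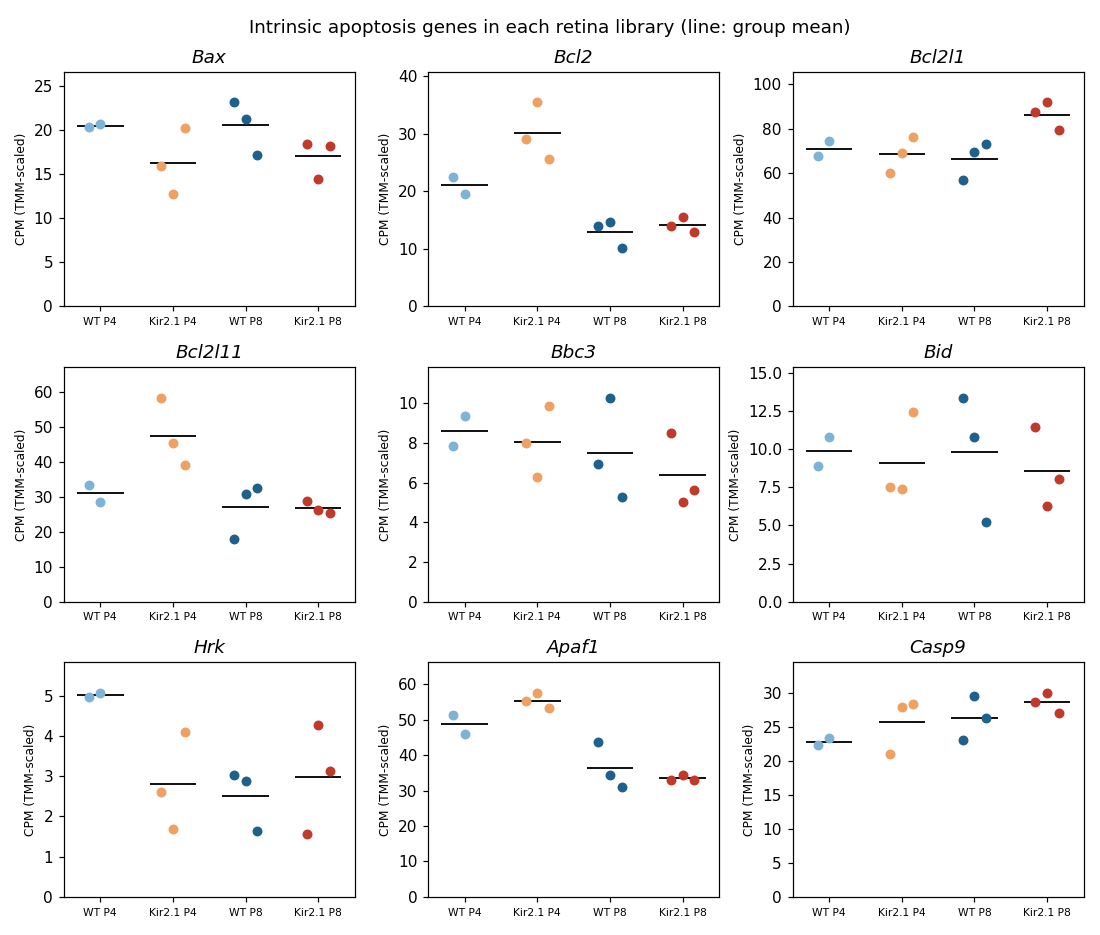
Level of each of the 9 genes in each of the 11 libraries, in TMM-scaled CPM, by group, with points for libraries and bars for group means. Bcl2 and Apaf1 are lower in every P8 library than in every P4 library, and Bcl2l11 overlaps between the ages.

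The comparison of P8 with P4, averaged over both genotypes, asked which of these genes changed as the retina matured. Bcl2, Apaf1 and Bcl2l11 fell, to 0.538, 0.671 and 0.702 of their P4 levels, and none of the 9 rose (edgeR quasi-likelihood test, adjusted p under 0.05). Of all 18188 genes tested, 22.8% were called in this comparison, 10.7% higher and 12.1% lower. The median log2 change of the 9 genes was -0.26, against 0.02 over all genes tested. The genes that fell thus included an inhibitor, a BH3-only activator and the scaffold of the apoptosome. Bax, Casp9 and the other inhibitor, Bcl2l1, were not called.

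Bcl2, the founding inhibitor of the family, showed the lowest P8 level relative to P4. In wild type its level was 22.5 and 19.5 CPM at P4 and 13.9, 14.6 and 10.2 CPM at P8. In Kir2.1 it was 29.0, 35.4 and 25.6 CPM at P4 and 14.0, 15.6 and 12.9 CPM at P8. All 5 P4 libraries were above all 6 P8 libraries, a pattern without overlap that 11.6% of all genes tested showed in either direction and 7.1% in this one. The change was -0.89 ± 0.14 on the log2 scale (SE), with an adjusted p of 0.000771 by edgeR's quasi-likelihood test. It stayed between -0.95 and -0.82 when each of the 11 libraries was left out in turn, and was called in all 11 of those fits.

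Bcl2l1, which encodes BCL-XL and is the main inhibitor known in ganglion cells, did not pass the test. Wild-type levels were 67.7 and 74.4 CPM at P4 and 57.0, 69.4 and 73.1 CPM at P8. Kir2.1 levels were 60.3, 69.0 and 76.4 CPM at P4 and 87.4, 91.8 and 79.4 CPM at P8. The 3 Kir2.1 P8 libraries were above all others, while the rest overlapped. The age difference was 0.12 ± 0.10 on the log2 scale (edgeR adjusted p = 0.432).

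Bax, the effector that forms the mitochondrial pore, had overlapping levels at the ages. Wild type had 20.3 and 20.6 CPM at P4 and 23.1, 21.3 and 17.2 CPM at P8, and Kir2.1 had 15.9, 12.7 and 20.2 CPM at P4 and 18.4, 14.4 and 18.2 CPM at P8. Its log2 difference was 0.03 ± 0.15 (edgeR adjusted p = 0.901). As a description of the balance between effector and inhibitor RNA, the ratio of Bax to Bcl2 per kilobase ranged from 2.09 to 6.14 at P4 (median 4.58, 5 libraries). At P8 it ranged from 5.38 to 9.81 (median 8.31, 6 libraries), so the ranges met over both genotypes. Within a genotype they did not: wild type had 5.24 and 6.14 at P4 and 8.45 to 9.81 at P8, and Kir2.1 had 2.09 to 4.58 at P4 and 5.38 to 8.17 at P8. The ratio is of RNA levels in whole tissue, and Bcl2, the gene in its denominator, is the one that changed between ages.

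Among the 4 BH3-only genes, Bcl2l11 fell and the other 3 did not pass the test. Bcl2l11 encodes BIM, an activator controlled in neurons by JNK and FOXO signalling. It had 33.3 and 28.6 CPM in wild type and 58.3, 45.2 and 38.9 CPM in Kir2.1 at P4. At P8 it had 17.8, 30.8 and 32.5 CPM in wild type and 28.7, 26.2 and 25.4 CPM in Kir2.1. The ages overlapped, since 3 of the 6 P8 libraries were above wild-type P4 replicate 2. The change was -0.51 ± 0.16 on the log2 scale, with an adjusted p of 0.0399 by edgeR.

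The Bcl2l11 call was close to the threshold and depended on single libraries. It was lost in 7 of the 11 fits that left out 1 library. Without wild-type P4 replicate 1 the log2 change was -0.46 (edgeR adjusted p = 0.164) and without replicate 2 it was -0.56 (adjusted p = 0.0537). Leaving out Kir2.1 P4 replicate 1 or 2 gave -0.44 and -0.53 (edgeR adjusted p = 0.0864 and 0.0578). Leaving out Kir2.1 P8 replicate 1, 2 or 3 gave -0.54, -0.50 and -0.49 (edgeR adjusted p = 0.0591, 0.0770 and 0.0848). The direction was the same in all 11 fits, and without both wild-type P4 replicate 2 and P8 replicate 3 the change was -0.64 (edgeR adjusted p = 0.0223).

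Bbc3, which encodes PUMA, a BH3-only protein induced by p53, had a lowest, median and highest level of 6.29, 8.00 and 9.89 CPM at P4 and 5.01, 6.29 and 10.3 CPM at P8. Bid, whose product is cut by caspase-8 to link death receptors with mitochondria, had 7.37, 8.89 and 12.4 CPM at P4 and 5.21, 9.42 and 13.4 CPM at P8. Hrk had 1.69, 4.11 and 5.08 CPM at P4 and 1.57, 2.96 and 4.28 CPM at P8. The ages overlapped for each of these 3 genes. Their log2 differences were -0.26 ± 0.23 for Bbc3, -0.05 ± 0.27 for Bid and -0.45 ± 0.33 for Hrk (edgeR adjusted p = 0.454, 0.924 and 0.370).

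Of the apoptosome pair, the scaffold gene fell and the caspase gene was not called. Apaf1 had 51.4 and 46.1 CPM in wild type and 55.3, 57.6 and 53.4 CPM in Kir2.1 at P4. At P8 it had 43.7, 34.3 and 31.2 CPM in wild type and 32.9, 34.3 and 33.1 CPM in Kir2.1. Every P4 library was above every P8 library, with wild-type P8 replicate 1 nearest to the P4 range. The change was -0.58 ± 0.10 on the log2 scale (edgeR adjusted p = 0.00163), and it was called in all 11 fits that left out 1 library, at -0.67 to -0.53. Casp9, which encodes the initiator caspase of the apoptosome, had 21.1, 23.3 and 28.4 CPM as lowest, median and highest level at P4 and 23.1, 27.9 and 30.1 CPM at P8. Its log2 difference was 0.18 ± 0.12 (edgeR adjusted p = 0.316).

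**Figure D2:**
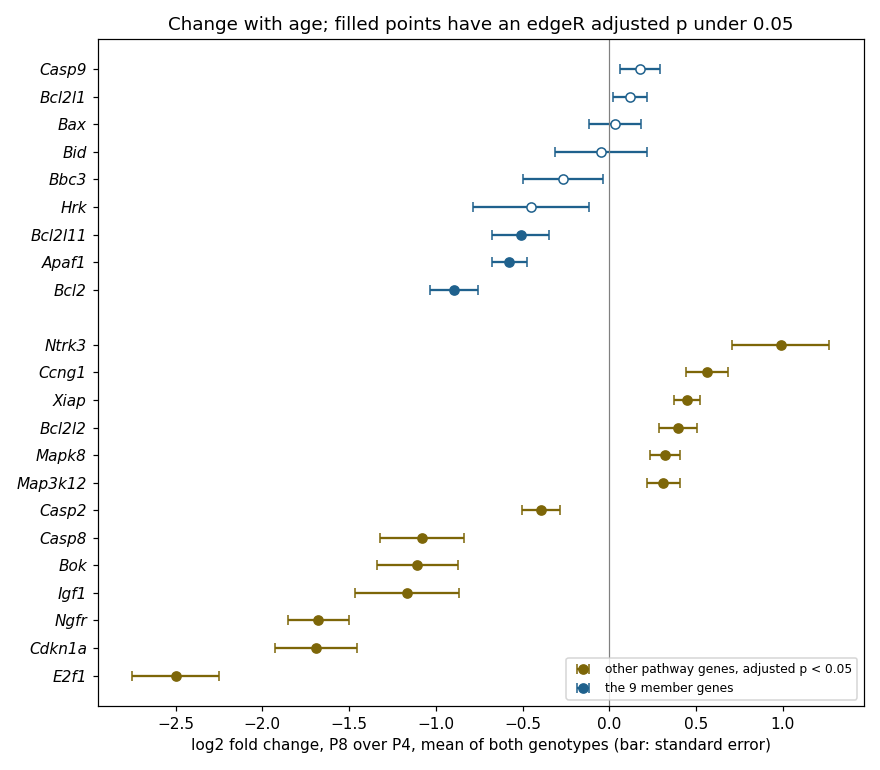
Log2 change from P4 to P8, averaged over both genotypes, with SE, for the 9 genes and for the 13 called genes of the surrounding pathway. Of the 51 pathway genes tested, those not called are not drawn. Bcl2, Apaf1 and Bcl2l11 lie below 0 and were called, and the called pathway genes lie on both sides of 0.

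**Figure D3:**
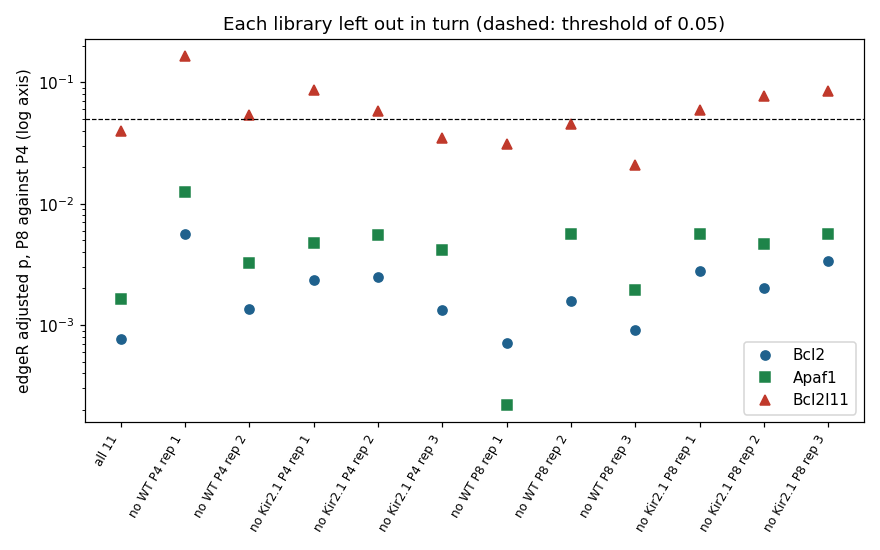
Adjusted p by edgeR for P8 against P4, on a log axis, for the members called in the fit of all 11 libraries. Each library is left out in turn, and the dashed line marks the threshold for a call. Bcl2 and Apaf1 stay below the line in all 11 fits, and Bcl2l11 lies above it in 7.

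Taken as a contrast within each genotype in the same fit of all 11 libraries, an alternative added after the data were seen, the age change was called in Kir2.1 for the same 3 genes (16.7% of all genes tested were called) and for none in wild type (4.39% of all genes tested). In Kir2.1 the log2 changes were -1.08 ± 0.19 for Bcl2, -0.73 ± 0.14 for Apaf1 and -0.83 ± 0.22 for Bcl2l11 (edgeR adjusted p = 0.00242, 0.00370 and 0.0230). In wild type they were -0.70 ± 0.21, -0.42 ± 0.15 and -0.20 ± 0.24 (edgeR adjusted p = 0.0817, 0.140 and 0.723), and 2 of the 9 genes had an unadjusted p under 0.05, against 19.6% of all genes tested. The difference between the genotypes in these changes, which is also the difference between ages in the Kir2.1 effect, was -0.38 ± 0.28 for Bcl2, -0.31 ± 0.20 for Apaf1 and -0.63 ± 0.33 for Bcl2l11. None of these differences was called (unadjusted p = 0.198, 0.156 and 0.0784, edgeR adjusted p = 1 for each), so the age change was not shown to differ between genotypes.

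Levels of cell-type markers in the libraries moved with age as well. All 10 cell-division markers were called lower and all 10 rod markers higher at P8. The summed level of the division markers was 966 to 2702 CPM at P4 and 113 to 166 CPM at P8, and Mki67, a marker of cycling cells, went from 572 to 1667 CPM down to 45.3 to 77.4 CPM. The summed rod level was 253 to 1301 CPM at P4 and 840 to 7512 CPM at P8. Of 12 ganglion cell markers 11 were called lower at P8 and 1 was called higher, at a log2 change of 0.80. Their summed level was 242 to 1308 CPM at P4 and 116 to 288 CPM at P8. Of 9 microglia markers 7 were called lower at P8 (summed level 202 to 430 CPM at P4 and 91.3 to 306 CPM at P8). All 8 bipolar cell markers were called higher at P8, with a median log2 change of 3.21 and a summed level of 276 to 585 CPM at P4 and 698 to 2057 CPM at P8. None of Mki67, Pou4f2, the gene encoding Brn3b, and C1qa, a microglial complement gene, was at 0 in any library. The part of these markers in the lower Bcl2, Apaf1 and Bcl2l11 was not tested.

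**Figure D4:**
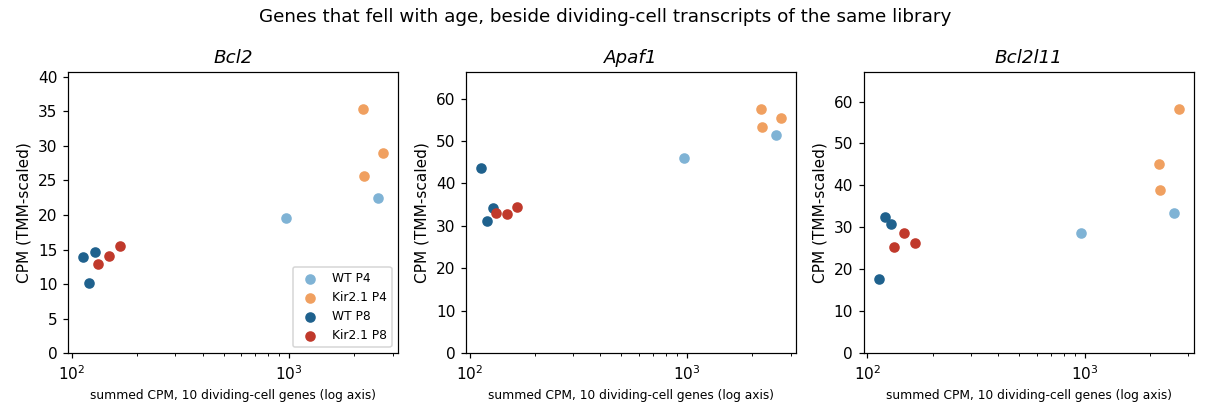
Level of Bcl2, Apaf1 and Bcl2l11 in each library against the summed level of 10 cell-division markers, both in CPM. P4 libraries lie at 966 to 2702 CPM of division markers and P8 libraries at 113 to 166 CPM, so age and division markers separate the same libraries.

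The genotype comparisons asked whether silencing ganglion cells altered these genes. At P4 none of the 9 was called, and none of the 18188 genes tested was either (0%, edgeR adjusted p under 0.05). At an unadjusted p under 0.05, edgeR gave 2 of the 9 genes, both higher, and 7.22% of all genes tested, of which 2.5% of all genes were higher. With 1 library left out this count of members ran from 0 (without wild-type P4 replicate 2) to 4 (without Kir2.1 P4 replicate 3). Bcl2 was 0.51 ± 0.21 higher in Kir2.1 on the log2 scale (unadjusted p = 0.0289, edgeR adjusted p = 0.677) and Bcl2l11 was 0.62 ± 0.25 higher (unadjusted p = 0.0273, adjusted p = 0.677). Without both wild-type P4 replicate 2 and P8 replicate 3, Bcl2 was at 0.41 and Bcl2l11 at 0.51 (unadjusted p = 0.108 and 0.107, edgeR adjusted p = 0.752 and 0.751). Both are genes that fell between P4 and P8, and the P4 Kir2.1 libraries enter both comparisons.

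Groups did not overlap at P4 for 5 of the 9 genes, 3 higher and 2 lower in Kir2.1. Of all genes tested 26.7% did not overlap, 12.4% higher and 14.4% lower, in a comparison with 2 wild-type libraries. All 3 Kir2.1 libraries were above both wild-type libraries for Bcl2, Bcl2l11 and Apaf1, the last at a log2 difference of 0.19 ± 0.15 (edgeR adjusted p = 0.797). All 3 were below for Bax, at -0.33 ± 0.22 (edgeR adjusted p = 0.754), and for Hrk, at -0.84 ± 0.49 (adjusted p = 0.729). With 1 library left out, Apaf1 ranged from 0.11 (without wild-type P4 replicate 2) to 0.26, Bax from -0.51 (without Kir2.1 P4 replicate 3) to -0.17 (without Kir2.1 P4 replicate 2), and Hrk from -1.23 to -0.57. The Bax gap was narrow: the highest Kir2.1 library had 20.2 CPM and the lowest wild-type library 20.3 CPM. For Hrk the values were 4.96 and 5.08 CPM in wild type and 2.60, 1.69 and 4.11 CPM in Kir2.1. Bcl2l1, Bbc3, Bid and Casp9 overlapped between genotypes, with log2 differences of -0.05 ± 0.14, -0.10 ± 0.34, -0.12 ± 0.39 and 0.18 ± 0.17. Ganglion cell markers also differed in level at P4, where all 12 had a lower fitted level in Kir2.1 and none was called. Their summed level was 1308 and 844 CPM in wild type and 242 to 667 CPM in Kir2.1. At the same age all 10 cell-division markers had a higher fitted level in Kir2.1 (summed level 2579 and 966 CPM in wild type and 2197 to 2702 CPM in Kir2.1, median log2 difference 0.32). Of 8 bipolar cell markers 7 had a lower fitted level in Kir2.1 (summed level 286 and 585 CPM in wild type and 276 to 316 CPM in Kir2.1). All 9 microglia markers had a higher fitted level in Kir2.1 (summed level 360 and 202 CPM in wild type and 258 to 430 CPM in Kir2.1). Of 8 vascular markers 7 had a lower fitted level in Kir2.1 (median log2 difference -0.83). Their summed level overlapped, at 572 and 453 CPM in wild type and 448 to 750 CPM in Kir2.1, with the higher mean in Kir2.1. Of 8 Mueller markers 6 had a higher fitted level in Kir2.1 (summed level 1375 and 1320 CPM in wild type and 1536 to 1898 CPM in Kir2.1). Fitted levels were lower for 8 of 10 rod and 6 of 8 amacrine markers (median log2 difference -0.34 and -0.23). For cone markers 5 of 7 were higher (median 0.09). None of these markers was called, and their part in the values of the 9 genes was not tested.

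At P8 none of the 9 genes and none of all genes tested was called between genotypes (0% by edgeR). At an unadjusted p under 0.05, edgeR gave 1 of the 9 genes and 6.82% of all genes tested. Bcl2l1 was 1.30-fold higher in Kir2.1, a log2 difference of 0.37 ± 0.13 (unadjusted p = 0.0139, edgeR adjusted p = 0.699). Without both wild-type P4 replicate 2 and P8 replicate 3 it was at 0.45 ± 0.14 (edgeR adjusted p = 0.103). Without wild-type P8 replicate 1 it was at 0.27 (unadjusted p = 0.0592), and then 0 of the 9 genes had an unadjusted p under 0.05 by edgeR. It was the only one of the 9 whose groups did not overlap, which 10.6% of all genes tested showed, with 79.4 to 91.8 CPM in Kir2.1 and 57.0 to 73.1 CPM in wild type. The authors' deposited table put Bcl2l1 0.51 higher on the log2 scale at P8, with an adjusted p of 0.0743. At P8 all 10 rod markers, all 8 bipolar and all 9 microglia markers had a higher fitted level in Kir2.1, and all 8 amacrine markers a lower one, with none called. Summed levels in wild type and Kir2.1 were 698 to 2057 and 1369 to 1712 CPM for bipolar, 95.2 to 168 and 91.3 to 306 CPM for microglia, and 1135 to 3200 and 924 to 1669 CPM for amacrine markers. The part of these markers in the Bcl2l1 difference was not tested. The wild-type P8 libraries had rod sums of 840, 3401 and 7512 CPM and Bcl2l1 levels of 57.0, 69.4 and 73.1 CPM, and the Kir2.1 libraries had rod sums of 7085 to 7304 CPM and Bcl2l1 levels of 79.4 to 91.8 CPM.

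The remaining members had P8 log2 differences from -0.27 ± 0.20 for Bax to 0.24 ± 0.45 for Hrk, with edgeR adjusted p-values of 0.746 and 0.911. Bcl2 differed by 0.13 ± 0.19 and Bcl2l11 by -0.01 ± 0.22 at this age (edgeR adjusted p = 0.873 and 0.993). The test of the difference between ages in the Kir2.1 effect called none of the 9 and none of all genes tested (0%), and at an unadjusted p under 0.05 edgeR gave 1 of the 9 against 3.09% of all genes tested. That gene was Bcl2l1, at 0.43 ± 0.19 (unadjusted p = 0.0487, edgeR adjusted p = 1). Without both wild-type P4 replicate 2 and P8 replicate 3 it was again at 0.43 (unadjusted p = 0.0812, edgeR adjusted p = 0.754), and with 1 library left out 0 to 2 members had an unadjusted p under 0.05.

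Averaged over both ages, none of the 9 was called between genotypes and none of all genes tested (0% by edgeR). At an unadjusted p under 0.05, edgeR gave 1 of the 9 genes and 11.7% of all genes tested. Bcl2 was 0.32 ± 0.14 higher in Kir2.1 on the log2 scale (unadjusted p = 0.0391, edgeR adjusted p = 0.409), and its wild-type and Kir2.1 libraries overlapped within P8. Without both wild-type P4 replicate 2 and P8 replicate 3 it was at 0.20 (unadjusted p = 0.215, edgeR adjusted p = 0.533), and 0 of the 9 genes then had an unadjusted p under 0.05 (0 to 2 with 1 library left out). Bax was at -0.30 ± 0.15 (unadjusted p = 0.0657, edgeR adjusted p = 0.445), and Bcl2l11 at 0.30 ± 0.16 (unadjusted p = 0.0908, adjusted p = 0.477). The authors' deposited table called 314 of 13830 genes at P4 (2.27%) and 974 of 13396 at P8 (7.27%), and none of the 9 was among either set. In the authors' deposited table at P4, Kir2.1 was above wild type by 0.71 on the log2 scale for Bcl2, 0.60 for Apaf1 and 0.49 for Bcl2l11, with adjusted p-values of 0.248, 0.232 and 0.421.

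**Figure D5:**
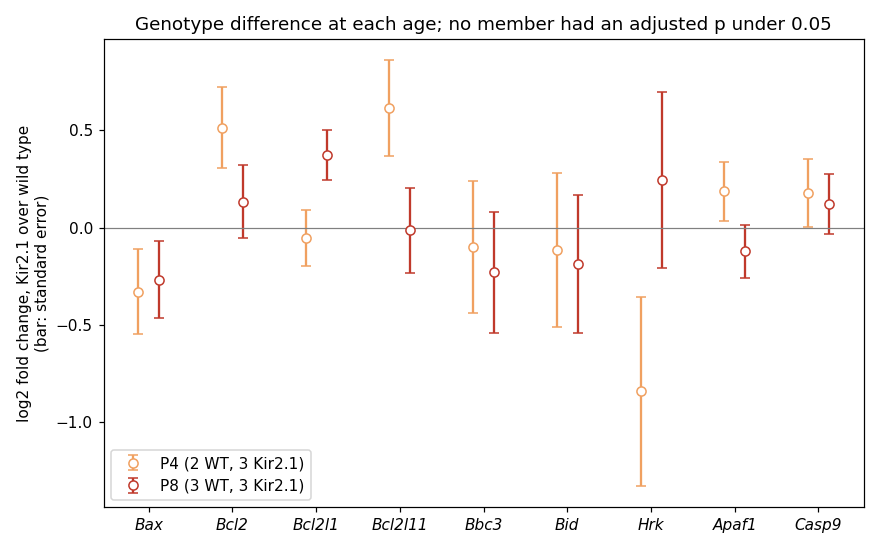
Log2 difference of Kir2.1 from wild type, with SE, for the 9 genes at P4 and at P8. No gene was called at either age, and the values run from -0.84 for Hrk to 0.62 for Bcl2l11, both at P4.

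The other genes of the pathway were taken from lists of 58 genes, of which 51 passed the filter on low counts. These lists too were chosen with earlier results of these data known. Between P4 and P8, 13 of the 51 were called, 6 higher and 7 lower, a share of 25.5% against 22.8% of all genes tested. Their median log2 change was 0.03, against 0.02 over all genes. By group, 1 of 5 multidomain family members was called higher and 1 lower, none of 3 further BH3-only genes and none of 5 genes of mitochondrially released proteins was called, and 2 of 7 caspase and DNase genes were lower. One of 4 inhibitor-of-apoptosis genes was higher, 2 of 12 upstream regulators were higher and 1 lower, 1 of 8 further p53 targets was higher and 1 lower, and 1 of 7 trophic factor and receptor genes was higher and 2 lower.

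The 6 called pathway genes with the largest changes all fell. E2f1, a cell-cycle transcription factor that can also induce apoptosis genes, fell from a mean of 43.4 to 7.27 CPM (log2 change -2.50 ± 0.25, edgeR adjusted p = 3.53e-05). Cdkn1a, the p53-induced cell-cycle inhibitor p21, fell from 12.7 to 4.02 CPM (-1.69 ± 0.24, edgeR adjusted p = 0.000377). Ngfr, the p75 neurotrophin receptor, fell from 88.6 to 26.6 CPM (-1.68 ± 0.18, edgeR adjusted p = 4.96e-05). The growth factor gene Igf1 fell by 1.17 ± 0.30, but without wild-type P4 replicate 1, which had 106 CPM against 14.4 to 51.6 CPM in the other P4 libraries, it was at -0.77 (edgeR adjusted p = 0.0149 with it and 0.126 without). Bok, a multidomain relative of Bax, fell by 1.11 ± 0.23 and Casp8, the initiator caspase of death receptors, by 1.08 ± 0.24 (edgeR adjusted p = 0.00509 and 0.00701). The ages did not overlap for 5 of these 6 genes, all but Igf1, against 11.6% of all genes tested (7.1% lower), but the 6 were picked for the size of their change. As contrasts within 1 genotype, E2f1, Cdkn1a and Ngfr were called in both, Bok was not called in Kir2.1 (-0.52, edgeR adjusted p = 0.307), Casp8 not in wild type (-0.99, adjusted p = 0.150) and Igf1 in neither (-1.53 in wild type and -0.80 in Kir2.1, adjusted p = 0.0740 and 0.215).

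Xiap, which encodes a direct inhibitor of caspase-9, rose, and is named here after its values were seen. Its mean went from 120 CPM at P4 to 165 CPM at P8 (log2 change 0.45 ± 0.08, edgeR adjusted p = 0.00132), with all 6 P8 libraries at 146 to 188 CPM above all 5 P4 libraries at 110 to 127 CPM. Within wild type alone it was at 0.33 and was not called (edgeR adjusted p = 0.130). The other 6 called genes, Bcl2l2, Ccng1, Mapk8, Map3k12, Ntrk3 and Casp2, were likewise outside the rule for naming genes. Ccng1, a p53 target, rose by 0.56 ± 0.12 on the log2 scale (edgeR adjusted p = 0.00606) and kept its call in all 11 fits without 1 library. The other 5 lost it without wild-type P4 replicate 1, where Bcl2l2 was at 0.36, Mapk8 0.25, Map3k12 0.25, Ntrk3 0.77 and Casp2 -0.30 (edgeR adjusted p = 0.115, 0.127, 0.190, 0.129 and 0.141). Without Kir2.1 P4 replicate 1 the call also ended for Bcl2l2 (0.32), Mapk8 (0.29) and Ntrk3 (0.94), without Kir2.1 P8 replicate 1 for Casp2 (-0.37) and Map3k12 (0.32), without Kir2.1 P8 replicate 2 for Bcl2l2 (0.36) and Map3k12 (0.28), and without Kir2.1 P8 replicate 3 for Ntrk3 (0.88). Map3k12, which encodes the kinase DLK of axon injury signalling, was also not called without Kir2.1 P4 replicate 2 (0.26), Kir2.1 P4 replicate 3 (0.32) or wild-type P8 replicate 2 (0.30). With no filter on low counts, Bcl2l2 and Map3k12 were not called (0.39 and 0.31, edgeR adjusted p = 0.0750 and 0.0845), and within wild type alone none of these 6 genes was. Mapk8 was called in neither genotype alone, with 0.26 in Kir2.1 (edgeR adjusted p = 0.150).

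None of the 51 pathway genes was called in a genotype comparison by edgeR. At an unadjusted p under 0.05 there were 7 of 51 at P4 (3 higher and 4 lower in Kir2.1), or 13.7% against 7.22% of all genes tested, and 6 at P8 (3 and 3), or 11.8% against 6.82%. For the mean of both ages there were 10 (4 and 6), or 19.6% against 11.7%, and for the difference between ages 3, or 5.88% against 3.09%. The genes with the smallest p were Bok (-0.88 ± 0.34, unadjusted p = 0.0232) and Igf1 (-1.11 ± 0.44, 0.0255) at P4 by edgeR. Igf1 rested on single libraries: leaving out wild-type P4 replicate 1 gave -0.32, Kir2.1 P4 replicate 2 gave -0.73, and the other wild-type P4 library gave -1.62. The edgeR test with no filter on low counts called it at -1.12 (adjusted p = 1.76e-05). At P8 they were the BH3-only gene Bmf (1.08 ± 0.35, unadjusted p = 0.00888) and the forkhead factor gene Foxo3 (0.41 ± 0.16, 0.0276) by edgeR. Bmf had 3.66, 6.04 and 12.4 CPM in wild type and 16.6, 14.7 and 15.8 CPM in Kir2.1 at P8. Rod sums in the same wild-type libraries were 840, 3401 and 7512 CPM, against 7085 to 7304 CPM in Kir2.1, and their part in the Bmf values was not tested. Without wild-type P8 replicate 3, the library at 12.4 CPM and with the highest rod sum, Bmf was called at 1.69 (edgeR adjusted p = 0.0321, against 0.699 with all libraries), and with wild-type P4 replicate 2 left out as well it was called at 1.69 (adjusted p = 0.0240). Without wild-type P8 replicate 1, the library with the lowest rod sum at P8, it was at 0.76 and was not called, and edgeR with no filter on low counts called it at 1.08 (adjusted p = 0.0255). Foxo3 was at 0.27 without wild-type P8 replicate 1.

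For the mean of both ages, Mdm2, whose product degrades p53, and Ntrk2, which encodes the BDNF receptor TrkB, had the smallest p. Mdm2 was at 80.0, 87.7, 74.2, 85.0 and 99.5 CPM in wild type and 101 to 106 CPM in Kir2.1, without overlap, which 0.594% of all genes tested showed. The gap was narrow, from 99.5 to 101 CPM, and Mdm2 was picked for its small p in this same comparison. Its log2 difference was 0.29 ± 0.09 (edgeR adjusted p = 0.355), and without wild-type P8 replicate 3 it was 0.35 (adjusted p = 0.0373). With wild-type P4 replicate 2 left out as well it was 0.38 (edgeR adjusted p = 0.0616). Ntrk2 was at -0.58 ± 0.20 (edgeR adjusted p = 0.363), without wild-type P8 replicate 3 at -0.71 (adjusted p = 0.0407), and without both at -0.63 (adjusted p = 0.0948). With no filter on low counts edgeR called Ntrk2 at -0.59 (adjusted p = 4.99e-05). For the difference between ages, Bok (1.17 ± 0.47, unadjusted p = 0.0278) and Bmf (unadjusted p = 0.0410) came first by edgeR.

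The 11 libraries differ in age, depth and cell-type marker levels. As a description over them, the gene most like each member was taken from 12225 candidates by Pearson's r of log2 CPM. Bcl2 was most like Cchcr1 (r = 0.971), Apaf1 most like Eef1a1 (r = 0.989) and Bcl2l11 most like Scpep1 (r = 0.941). Bax was most like Pcsk1n (r = 0.975), Bcl2l1 most like Kantr (r = 0.925) and Casp9 most like Abhd3 (r = 0.942). Bbc3 was most like Myo1c (r = 0.898), Bid most like Rhobtb2 (r = 0.920) and Hrk most like Gpr21 (r = 0.923). With 11 libraries and that many candidates, a high value for the best of them is a consequence of the choice, so these pairs are given as neighbours in these data only.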

How the data were processed

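RNA-seq of 11 mouse retina libraries was used. Per the submitters' processing notes, the authors used cutadapt 1.18, STAR 2.5.0c, SAMtools 1.9, bedtools 2.26.0, HTSeq 0.6.1 and DESeq2 with mm10; the annotation and strand setting are not given in the sources used here. The deposited files hold raw counts per gene, and 74.6 to 79.8% of the records counted in each library named no gene and entered neither library sizes nor tests. The authors' deposited comparison tables hold log2 fold changes, mean signal (normalised counts), test statistics as a score, and p-values, per the file headers; they were quoted, not used in tests. The members and gene lists were chosen with earlier results of these data known.

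The tests used edgeR 4.0.16 (R 4.3.3): filterByExpr, TMM, 1 mean per group over all 11 libraries, quasi-likelihood tests of 5 contrasts, and Benjamini-Hochberg adjustment over 18188 genes with a threshold of 0.05. SEs were derived from the fitted change and its F statistic. The residual degrees of freedom were 7, and the common biological coefficient of variation was 0.247. The scripts were tested on simulated data. No 2 libraries of a group agreed within sampling noise. Pathway genes were named by rule: those called, up to 6 by size of change, or else the 2 with the smallest p. The values of 1 marker gene fixed for naming are not reported here. The most similar genes had a mean of at least 5 CPM. Alternatives were DESeq2 1.42.0 (its scaling and its test), limma 3.58.1 voom, other filters, removal of abundant genes, a replicate block, fits of the libraries of 1 age, age contrasts within 1 genotype, and leaving libraries out. Promoter letters are from RefSeq.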

Additional observations from a re-analysis of the deposited data

How the results depend on the processing

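The groups held 2 or 3 libraries, and Hrk rested on 19 to 60 counts per library. Leaving out a wild-type P4 library leaves 1 there, which is then assumed to vary like the other groups. The age calls of Bcl2 and Apaf1 held under every alternative run on both genotypes. No member was called between genotypes under any alternative.

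Counts of genes called between genotypes depended on the processing, and the cause was not tested. With all libraries edgeR called 0 at P4, 0 at P8, 0 for the mean of both ages and 0 for the difference between ages (1314, 1240, 2134 and 562 genes at an unadjusted p under 0.05). DESeq2 called 33, 3 and 86 genes for the first 3, and edgeR without a filter on low counts called 339, 447, 901 and 136. Without both wild-type P4 replicate 2 and wild-type P8 replicate 3, edgeR called 534 at P8 and 141 for the mean. Leaving out 1 library gave 0 to 6, 0 to 219, 0 to 609 and 0 to 1, the 219 and 609 without wild-type P8 replicate 3. For P8 against P4 the count was 4140, with 2133 (without wild-type P4 replicate 1) to 4417 on leaving out 1 library, 798 in wild type alone with 0 members, and 3029 in Kir2.1 alone with 3.

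Replicate numbers shared between groups did not pair the libraries: 3 of 15 same-number correlations of deviations were above 0.1 (-0.076 to 0.14). With the number as a replicate block, 3721 genes were called between the ages, and Bcl2l11, Map3k12 and Ntrk3 lost their calls at -0.50, 0.31 and 0.96 (edgeR adjusted p = 0.0838, 0.0628 and 0.0562).

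Uncalled log2 differences of members changed sign under some settings. Without both wild-type libraries, Bcl2l1, Bbc3 and Bid were at 0.015, 0.031 and 0.032 for genotype at P4, Bcl2 at -0.015 and Bcl2l11 at 0.14 at P8, Apaf1 at -0.057 for the mean, Bax at -0.063 for the difference between ages and Bid at 0.18 for age. With voom Hrk was at -0.021 at P8. For age, Bcl2l1 was at -0.10 in wild type alone and Hrk at 0.090 in Kir2.1 alone. Leaving out 1 library gave, at P4, Bcl2l1 -0.14 to 0.039, Bbc3 -0.27 to 0.061 and Bid -0.40 to 0.037. At P8 it gave Bcl2 -0.012 to 0.23, Bcl2l11 -0.24 to 0.14, Bbc3 -0.49 to 0.066, Bid -0.49 to 0.10, Hrk -0.10 to 0.56 and Apaf1 -0.22 to 0.029. For the mean Apaf1 was at -0.017 to 0.11. For the difference between ages Bax was at -0.10 to 0.25, Bbc3 -0.40 to 0.17, Bid -0.37 to 0.22 and Casp9 -0.19 to 0.035. For age Bax was at -0.042 to 0.13 and Bid at -0.21 to 0.11.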
